A study of Mus musculus with 9 samples.

Results

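The ATP-binding cassette (ABC) transporter genes were followed in mouse liver. The members were the genes whose symbol starts with Abc, a subfamily letter from a to g and a digit, leaving out pseudogene names, among probe sets that the array annotation pairs with 1 gene symbol. They numbered 48 of 19938 genes: 16 in subfamily A, 9 in B, 10 in C, 3 in D, 1 in E, 3 in F and 6 in G. Of the members, only Abcb5 had several probe sets, and the brighter was used.

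The arrays came from 9 mice in 3 groups of 3. Wild-type mice were C57BL/6J, Clock-D19 mutant mice carried the mutant Clock allele, and rescue mice carried the same allele and had been given 35 µg of a pLIVE plasmid for wild-type Clock, a vector made for expression in liver, by hydrodynamic injection into the tail vein at week 10. The labels describe no control injection, so effects of the injection and of Clock cannot be told apart. They name the strain of the wild-type mice only, so effects of the mutation and of any strain difference cannot be told apart either. All 9 mice had cycles of 12 h light and 12 h dark and ate a diet with 45% fat for 5 weeks from 10 weeks of age. Their livers were taken at zeitgeber hour 10, late in the light phase. CLOCK pairs with BMAL1 to activate transcription in the circadian loop, and the D19 protein activates poorly. The comparisons address which transporter genes differ between mutant and wild-type livers at this hour and which differ after Clock is supplied.

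ABC proteins use ATP to move lipids, bile salts, conjugates, drugs and metabolites across membranes. In hepatocytes several of them sit in the canalicular membrane and make bile, others return compounds to blood across the sinusoidal membrane, and others serve peroxisomes, mitochondria and lysosomes. Subfamilies E and F have the ATP-binding domains without a membrane part and act in translation.

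Values are RMA log2 levels, so a difference of 1 is a doubling, and a level can be set against the same gene in another group but not against another gene. A gene was called when its limma p-value, adjusted over all 19938 genes, was under 0.05. Bulk liver cannot tell fewer cells of a type from less RNA per cell. Levels under the 95th percentile of 1027 olfactory receptor genes (5.74 to 6.04 on the 9 arrays) are called dim. By that measure 13 members were dim in all 3 groups, 31 in none and 4 in some, and no member was filtered out for it. Clock itself read 9.24 to 9.97 in wild type, 9.89 to 10.88 in mutant and 9.41 to 10.33 in rescue, and whether its probes separate mutant from plasmid transcript was not examined, so it does not check the labels. Array medians lay between 5.97 and 6.08, which says little about array quality, since RMA gives arrays run together a common distribution. The limma array weights were lowest for mutant replicate 2 (0.539) and rescue replicate 2 (0.675) and highest for rescue replicate 3 (1.94). The lowest values were -0.464 to 0.113 on wild-type arrays and 1.35 to 1.46 on the others. Whether all 9 arrays went through RMA together is not stated, which bears on each comparison with wild type. Whether similar transcripts such as Abcb1a and Abcb1b share probes was not examined.

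Of the 48 members, 10 were called between mutant and wild type (20.8%), against 15.4% of all genes. The 3 that rose, Abca3, Abca15 and Abcb11, stand against 6.37% of all genes that rose, and the 7 that fell, Abca6, Abca8a, Abca9, Abcc9, Abce1, Abcg2 and Abcg3, against 9.02% that fell. Between rescue and mutant 6 members were called (12.5%, against 3.81% of all genes). Here 5 rose, Abca8a, Abca9, Abcb1a, Abcc9 and Abcg2 (2.61% of all genes rose), and Abca3 alone fell (1.20% fell). Between rescue and wild type 2 members were called (4.17%, against 2.28%), Abcb1a and Abcb11, which both rose (0.928% of all genes rose). No member fell there by limma, against 1.35% of all genes. At an unadjusted p under 0.05, 5 of the 48 were below wild type, beside 1568 of 19938 genes. An F test across the 3 groups called 10 members (20.8%, against 12.9%). The median member differed by 0.02 between mutant and wild type (all genes 0.07), by -0.00 between rescue and mutant (-0.05) and by 0.01 between rescue and wild type (0.01). The plot of all members by role shows the calls spread over canalicular, sterol and lipid, channel and translation genes. Abca15 and Abcg3, in the group of other members, were called too. The mutant arrays enter both of the first comparisons, so a low mutant value alone gives a fall in one and a rise in the other.

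**Figure D1:**
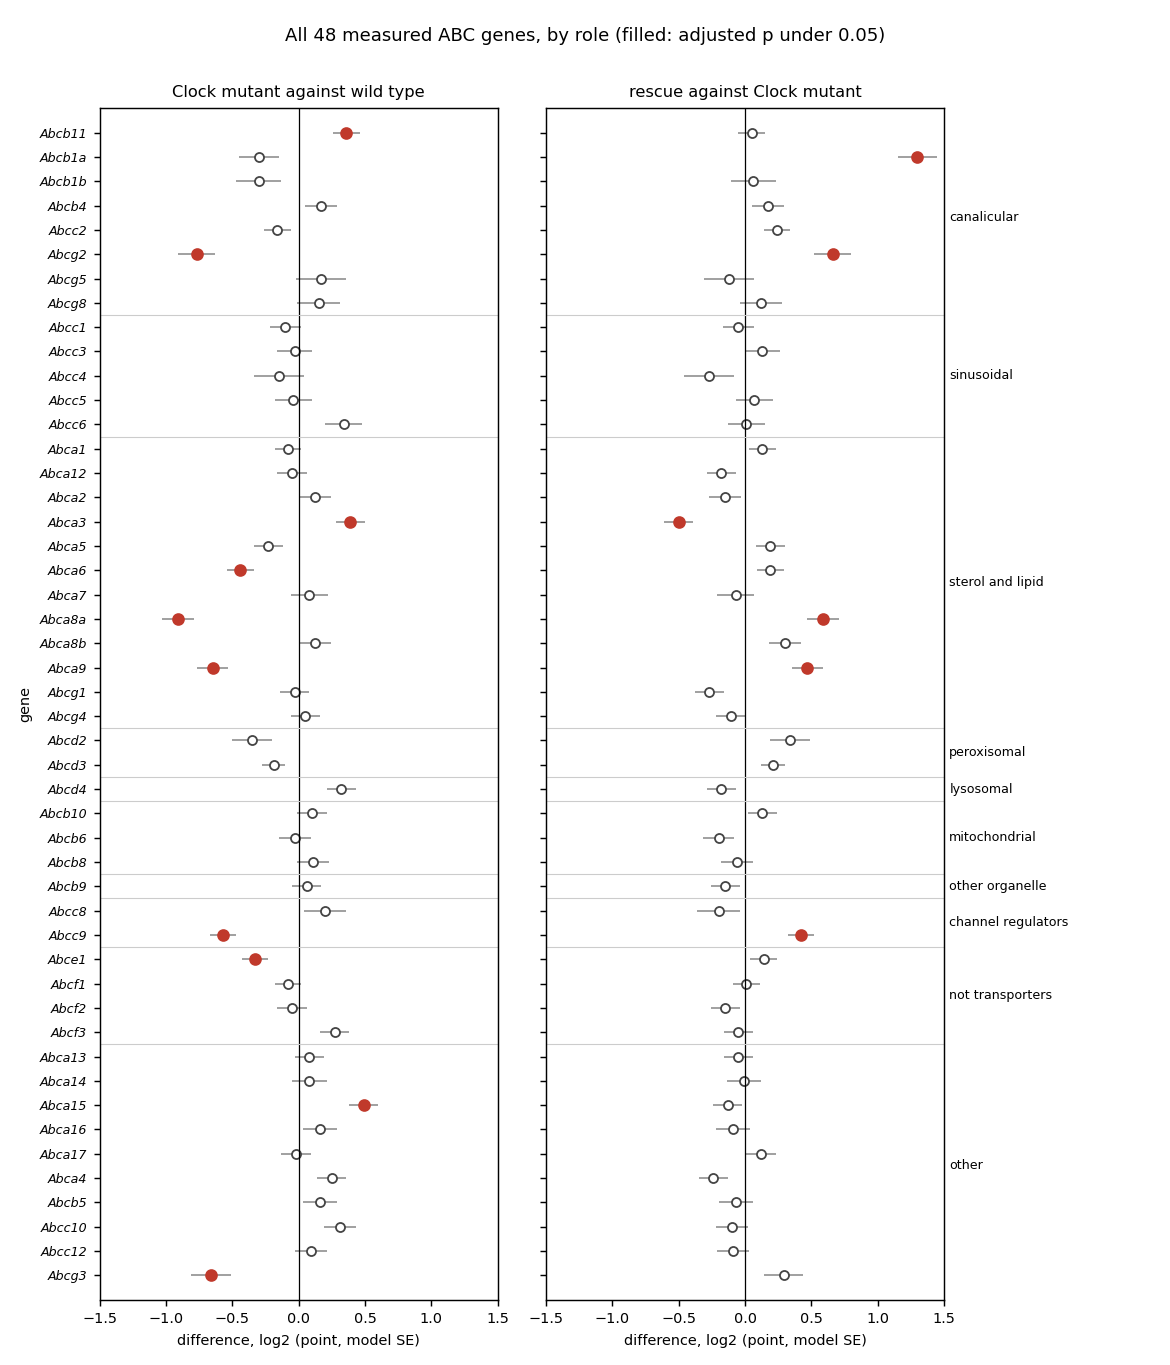
Log2 differences of the 48 ABC genes (points) with the model's standard error (bars), for Clock mutant against wild type (left) and rescue against Clock mutant (right), grouped by role; filled points passed an adjusted p under 0.05. Abca8a is lowest on the left at -0.91 and Abcb1a highest on the right at 1.30, while the sinusoidal, peroxisomal and mitochondrial groups hold no filled point.

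The largest fall in the family was in a run of neighbouring ABCA genes. Abca8b, Abca8a, Abca9, Abca6 and Abca5 follow each other in this order on mouse chromosome 11 in the GRCm38.p6 gene table, with no other protein-coding gene between them. ABCA proteins move lipids, and Abca8a and Abca8b are linked to cholesterol efflux, while the substrates of ABCA6 and ABCA9 are little known. The 300 bases around the annotated starts of Abca8a, Abca8b and Abca9 are shown because the first pair gave unlike values while Abca8a and Abca9 moved alike. They span the annotated start, counted as base 0, on the minus strand, 5′ to 3′, from RefSeq (GRCm38.p6), with the E-box CACGTG, the sequence CLOCK and BMAL1 bind, in capitals.
Abca8a, chr11:110095888-110096187: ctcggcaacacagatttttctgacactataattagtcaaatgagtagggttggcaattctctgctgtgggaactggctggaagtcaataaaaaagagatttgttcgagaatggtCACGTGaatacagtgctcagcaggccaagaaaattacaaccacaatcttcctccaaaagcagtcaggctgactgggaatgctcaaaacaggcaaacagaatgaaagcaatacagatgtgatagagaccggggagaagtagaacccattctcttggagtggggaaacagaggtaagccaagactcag
Abca8b, chr11:109995796-109996095: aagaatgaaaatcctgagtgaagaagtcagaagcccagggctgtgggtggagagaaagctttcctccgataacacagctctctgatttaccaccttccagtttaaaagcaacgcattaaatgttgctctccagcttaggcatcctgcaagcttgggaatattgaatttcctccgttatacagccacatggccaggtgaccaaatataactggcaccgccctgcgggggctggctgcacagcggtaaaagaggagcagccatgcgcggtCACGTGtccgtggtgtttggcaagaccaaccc
Abca9, chr11:110168104-110168403: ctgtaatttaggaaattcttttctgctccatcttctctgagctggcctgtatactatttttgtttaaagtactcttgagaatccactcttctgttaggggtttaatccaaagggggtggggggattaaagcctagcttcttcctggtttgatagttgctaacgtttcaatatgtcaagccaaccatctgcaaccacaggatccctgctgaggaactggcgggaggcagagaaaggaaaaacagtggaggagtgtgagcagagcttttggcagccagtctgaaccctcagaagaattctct

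The E-box begins at base -136 from the start in Abca8a and at base 18 in Abca8b, and these letters are not in the Abca9 window. Promoter windows were found for 38 of the 48 members, 45 windows in all, and CACGTG on either strand was in 6 of the 45 (13.3%), against 2349 of all 32851 windows (7.15%). The other 4 genes with it were Abca1, Abca15, Abcc4 and Abcf1, of which only Abca15 was called in any comparison. The D-box letters TTANGTAA, which DBP, TEF and HLF bind, were in none of the 45 and in 2.32% of all windows. The variant CACGTT was in 1 of the 45, the Abca12 window (2.22%, against 4.68%). The half-site AGGTCA of nuclear receptors was in 7 of the 45 (15.6%, against 16.3%), among them windows of Abcb11, Abcc2 and Abcg2. These matches describe letters in a window and do not measure binding.

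Abca8a read 9.70, 9.35 and 9.56 in wild type, 8.67, 8.47 and 8.74 in mutant and 9.14, 9.31 and 9.21 in rescue. All mutant values lay below all others, and the rescue values lay below the wild-type ones without overlap. It was 1.88-fold lower in mutant than in wild type (-0.91 ± 0.12 SE, limma adjusted p = 2.36e-04) and 1.51-fold higher in rescue than in mutant (0.59 ± 0.12, limma adjusted p = 0.0167). The difference of rescue from wild type was -0.32 ± 0.12 (adjusted p = 0.212, limma). The rise in rescue was not called without mutant replicate 1 or 2 or rescue replicate 2 or 3 (0.51 to 0.62, adjusted p = 0.0502 to 0.0649).

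Abca8b, the adjacent gene, read 8.68, 8.43 and 8.42 in wild type, 8.68, 8.41 and 8.80 in mutant and 9.01, 8.86 and 8.92 in rescue. Its wild-type and mutant values overlapped (0.12 ± 0.12, limma adjusted p = 0.529, 95% interval -0.14 to 0.38), and its rescue values lay above all others. The difference of rescue from wild type, 0.42 ± 0.12, did not pass (limma adjusted p = 0.0884) but was called without the dimmest 40% of genes (0.0466), with quantile normalization repeated (0.47, 0.0357) and with a trended and robust prior (0.0409). Within each array, Abca8a minus Abca8b was 1.02, 0.92 and 1.14 in wild type, -0.01, 0.06 and -0.06 in mutant and 0.13, 0.45 and 0.29 in rescue. The groups did not overlap in this difference, which was 1.03 lower in mutant than in wild type, and 3 against 3 arrays gave p = 0.10, the smallest an exact two-sided permutation test allows there.

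Abca9 read 6.81, 6.64 and 6.67 in wild type, 6.03, 5.87 and 6.29 in mutant and 6.62, 6.53 and 6.43 in rescue. Only the mutant values came near the dim level. It fell by 0.65 ± 0.12 in mutant (limma adjusted p = 0.00252) and rose by 0.47 ± 0.12 in rescue (limma adjusted p = 0.0468). The rise was near the threshold and was not called in 11 of 18 alternatives, among them array weights (0.37, adjusted p = 0.0626), the trend on gene span removed (0.44, 0.0643) and 8 that left out a single array, all but mutant replicate 3 (0.37 to 0.52, adjusted p = 0.0537 to 0.138).

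Abca6 read 11.08, 11.02 and 11.05 in wild type, 10.54, 10.71 and 10.57 in mutant and 10.89, 10.65 and 10.86 in rescue. It fell by 0.44 ± 0.10 in mutant without overlap (limma adjusted p = 0.0106), and rescue overlapped mutant (0.19 ± 0.10, adjusted p = 0.31, limma). Abca5, a lysosomal member at the end of the run, read 6.90, 6.83 and 7.10 in wild type, 6.87, 6.63 and 6.63 in mutant and 6.85, 6.95 and 6.91 in rescue. Its groups overlapped in each comparison, and none passed (mutant against wild type -0.23 ± 0.11, limma adjusted p = 0.167). The falls of Abca8a, Abca9 and Abca6 in mutant were called in all 18 alternatives.

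**Figure D2:**
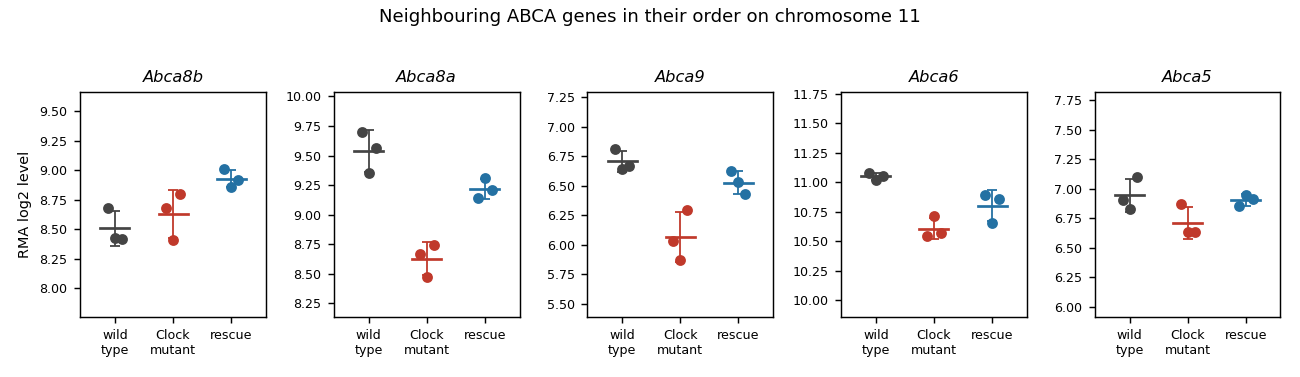
RMA log2 levels (y axes, each spanning 1.9 log2 units) of 5 ABCA genes in their order on chromosome 11, with 1 point per array, the group mean (line) and its SD (bar) for wild type, Clock mutant and rescue. Abca8a drops from about 9.54 to 8.63 in the mutant while Abca8b beside it stays at 8.51 and 8.63.

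Among other sterol and lipid genes, Abca3 went the opposite way. Abca3, known for loading lipid into the surfactant organelles of lung, read 7.67, 7.60 and 7.54 in wild type, 8.05, 7.97 and 7.96 in mutant and 7.64, 7.31 and 7.54 in rescue. The mutant values lay above all others, and rescue overlapped wild type. It rose by 0.39 ± 0.11 in mutant (limma adjusted p = 0.0256) and fell by 0.50 ± 0.11 in rescue (limma adjusted p = 0.0249). The rise was not called with each array centred on its median (0.31, adjusted p = 0.0865) or without mutant replicate 1 or 3 or wild-type replicate 2 or 3 (0.36 to 0.41, adjusted p = 0.0544 to 0.0933). The fall was not called without any 1 of the mutant arrays or without rescue replicate 2 or 3 (-0.40 to -0.52, adjusted p = 0.0541 to 0.0881).

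The genes best known for cholesterol efflux gave no call. Abca1, which loads cholesterol onto apolipoprotein A-I, read 9.40, 9.21 and 9.30 in wild type, 9.26, 9.24 and 9.19 in mutant and 9.38, 9.27 and 9.43 in rescue. Its mutant difference of -0.08 had a 95% interval of -0.29 to 0.14. Abcg1, which passes cholesterol to HDL and is prominent in macrophages, read 7.04, 7.05 and 6.80 in wild type, 6.83, 7.11 and 6.88 in mutant and 6.67, 6.66 and 6.68 in rescue. The rescue values were the lowest of the 9, but neither the difference from mutant (-0.27 ± 0.11, limma adjusted p = 0.182) nor that from wild type (-0.30 ± 0.11, limma adjusted p = 0.217) passed. Abca2, a lipid carrier of brain lysosomes, read 7.17, 7.13 and 6.96 in wild type, 7.11, 7.45 and 7.06 in mutant and 7.04, 7.04 and 7.09 in rescue. Abcg4, a relative of Abcg1, read 6.53, 6.58 and 6.51 in wild type, 6.58, 6.69 and 6.50 in mutant and 6.32, 6.64 and 6.49 in rescue. Both showed overlapping groups. Abca7, studied for phagocytosis and lipid export, read 5.70, 6.01 and 5.75 in wild type, 5.84, 6.20 and 5.65 in mutant and 5.65, 5.88 and 5.94 in rescue. Abca12, the lipid carrier of the skin barrier, read 5.01, 4.98 and 5.20 in wild type, 5.00, 5.03 and 4.99 in mutant and 4.99, 4.69 and 4.81 in rescue. Abca7 and Abca12 were dim in all groups, and none of these 4 genes was called by limma in any comparison. Of all 12 sterol and lipid genes, 1 rose, 3 fell and 8 did not pass in mutant, with a median of -0.04, where 6.37% of all genes rose and 9.02% fell. In rescue against mutant 2 rose, 1 fell and 9 did not pass, where 2.61% of all genes rose and 1.20% fell.

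Among the 8 canalicular exporters, which carry bile components from the hepatocyte into the canaliculus, 1 rose, 1 fell and 6 did not pass in mutant against wild type, where 6.37% of all genes rose and 9.02% fell. Between rescue and mutant 2 rose and 6 did not pass (2.61% of all genes rose), and between rescue and wild type also 2 rose and 6 did not pass (0.928% of all genes rose). The median was -0.00, 0.14 and 0.18 in these comparisons.

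Abcg2, an exporter of urate, porphyrins and many drugs, read 9.75, 9.35 and 9.52 in wild type, 8.86, 8.49 and 8.95 in mutant and 9.50, 9.50 and 9.29 in rescue. Every mutant value lay below every other value, and rescue overlapped wild type. It was 1.71-fold lower in mutant (-0.77 ± 0.14, limma adjusted p = 0.00185) and 1.58-fold higher in rescue than in mutant (0.66 ± 0.14, limma adjusted p = 0.0198). The fall was called in all 18 alternatives, and the rise was not called without mutant replicate 2 (0.53, adjusted p = 0.0632) or rescue replicate 2 (0.63, adjusted p = 0.0708). The difference of rescue from wild type was -0.11, with an interval of -0.40 to 0.18.

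Abcb11, the bile salt export pump, read 11.42, 11.37 and 11.37 in wild type, 11.77, 11.78 and 11.69 in mutant and 11.90, 11.74 and 11.74 in rescue. Mutant and rescue overlapped each other and both lay above wild type. It rose by 0.36 ± 0.10 in mutant (limma adjusted p = 0.0225) and by 0.41 ± 0.10 in rescue against wild type (limma adjusted p = 0.0412), and rescue minus mutant was 0.05, with an interval of -0.16 to 0.26. The first rise was not called with each array centred on its median (0.28, adjusted p = 0.0828), without any 1 wild-type array, or without mutant replicate 1 or 2 (0.34 to 0.38, adjusted p = 0.0502 to 0.0694). The second was not called in 10 of 18 alternatives (0.36 to 0.44): centring (adjusted p = 0.0647), the 2 groups alone (0.0653), and leaving out any 1 wild-type or rescue array or mutant replicate 1 or 3 (adjusted p = 0.058 to 0.138).

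Abcb1a stood out in the rescue livers. Together with Abcb1b it encodes mouse P-glycoprotein, a pump for lipophilic drugs that humans make from a single gene. It read 5.23, 5.51 and 4.85 in wild type, 5.08, 4.73 and 4.88 in mutant and 6.24, 6.30 and 6.03 in rescue. Wild type and mutant overlapped at the dim level, and all 3 rescue values lay above both. It was 2.45-fold higher in rescue than in mutant (1.30 ± 0.15, limma adjusted p = 7.96e-04) and 1.99-fold higher than in wild type (0.99 ± 0.15, limma adjusted p = 0.00283). Both calls held in each of the 17 alternatives that tested it. RMA compresses dim levels, so these folds may be too small, and without the dimmest 40% of genes it was not tested.

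Abcb1b read 5.24, 5.17 and 5.03 in wild type, 4.49, 5.18 and 4.88 in mutant and 4.62, 5.19 and 4.92 in rescue, dim and overlapping throughout.

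Abcb4, which moves phosphatidylcholine into bile, read 9.33, 9.36 and 9.30 in wild type, 9.55, 9.48 and 9.47 in mutant and 9.84, 9.40 and 9.76 in rescue. Both other groups lay above wild type, but neither difference passed (0.17 ± 0.12, limma adjusted p = 0.333, and 0.34 ± 0.12, limma adjusted p = 0.176). The second was called with quantile normalization repeated (0.42, adjusted p = 0.0486) and without rescue replicate 2 (0.47, adjusted p = 0.0491). Abcc2, the exporter of bilirubin glucuronides, read 11.92, 11.95 and 11.75 in wild type, 11.62, 11.80 and 11.73 in mutant and 12.01, 11.88 and 11.99 in rescue. Its rescue values lay above its mutant values, and the difference of 0.24 ± 0.10 did not pass (limma adjusted p = 0.196).

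Abcg5 and Abcg8 encode the subunits of 1 sterol pump and are read in opposite directions from starts so close that their promoter windows share 209 bases. Abcg5 read 10.19, 9.56 and 9.29 in wild type, 10.02, 9.72 and 9.82 in mutant and 9.84, 9.47 and 9.89 in rescue. Abcg8 read 9.03, 8.54 and 8.39 in wild type, 8.96, 8.75 and 8.71 in mutant and 8.91, 8.69 and 9.16 in rescue. In both, wild-type replicate 1 was high, and the wild-type spread (SD 0.46 and 0.34) exceeded every difference between groups. Abcg5 minus Abcg8 had a mean of 1.03 in wild type, 1.04 in mutant and 0.81 in rescue (rescue against mutant -0.23, exact permutation test, two-sided p = 0.10; rescue against wild type -0.22, with overlap, p = 0.20).

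**Figure D3:**
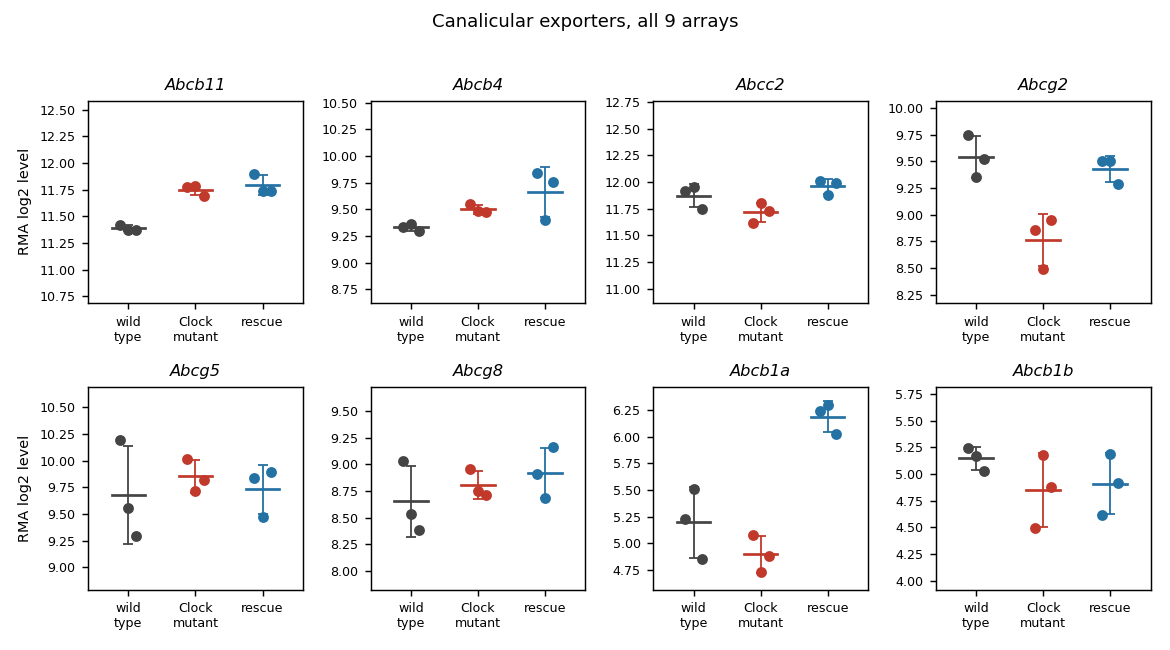
RMA log2 levels (y axes, each spanning 1.9 log2 units) of 8 canalicular exporter genes, with 1 point per array, the group mean (line) and its SD (bar). Abcg2 is low in the mutant only (mean 8.77), Abcb11 is higher in mutant and rescue (11.75 and 11.79) than in wild type (11.39), and Abcb1a is high in rescue only (6.19).

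None of the 5 sinusoidal exporters was called by limma in any comparison. Over all genes 15.4%, 3.81% and 2.28% were called in the 3 comparisons, so no call among so few genes is little apart from that. At an unadjusted p under 0.05 there was 1 for mutant and wild type, 0 for rescue and mutant, and 2 for rescue and wild type. Of all 19938 genes, 6122, 4200 and 2840 were under that value in the 3 comparisons. Abcc3, which returns glucuronides and bile acids to blood, read 10.07, 9.84 and 9.97 in wild type, 10.03, 9.71 and 10.06 in mutant and 10.06, 9.90 and 10.24 in rescue, all overlapping. Abcc6, mutated in the human calcification disorder pseudoxanthoma elasticum, read 7.47, 7.45 and 7.01 in wild type, 7.55, 7.82 and 7.58 in mutant and 7.54, 7.60 and 7.84 in rescue. Both other groups lay above wild type, with 0.34 ± 0.14 in mutant (limma adjusted p = 0.111).
Abcc4, an exporter of nucleotides and bile acids, read 6.42, 5.81 and 5.39 in wild type, 5.69, 5.71 and 5.78 in mutant and 5.46, 5.31 and 5.58 in rescue. Wild-type replicate 1 was highest, the other wild-type values overlapped both groups, and mutant and rescue were dim. Abcc1, an exporter of leukotriene C4 and drugs, read 5.51, 5.41 and 5.71 in wild type, 5.59, 5.23 and 5.51 in mutant and 5.38, 5.27 and 5.53 in rescue. Abcc5, an exporter of cyclic nucleotides, read 5.62, 5.73 and 5.88 in wild type, 5.74, 5.97 and 5.41 in mutant and 5.66, 5.99 and 5.67 in rescue. Both were dim and overlapping in all groups.

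Both peroxisomal members measured had their lowest mean in the mutant livers. Neither was called by limma in any comparison, where 15.4%, 3.81% and 2.28% of all genes were. At an unadjusted p under 0.05 there was 1 for mutant and wild type, 2 for rescue and mutant, and 0 for rescue and wild type. Of all 19938 genes, 6122, 4200 and 2840 were under that value. Abcd3, which brings branched-chain and bile acid precursors into peroxisomes, read 11.95, 11.88 and 11.94 in wild type, 11.72, 11.75 and 11.74 in mutant and 11.97, 11.92 and 11.95 in rescue. The mutant values lay below the others without overlap and within 0.03 of each other. The differences were small, -0.19 ± 0.09 in mutant (limma adjusted p = 0.187) and 0.21 ± 0.09 in rescue against mutant (limma adjusted p = 0.21).

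Abcd2, an importer of very-long-chain fatty acids, read 8.65, 9.07 and 9.06 in wild type, 8.61, 8.43 and 8.70 in mutant and 9.21, 8.65 and 8.91 in rescue, with overlap. Its difference was -0.35 ± 0.15 in mutant (limma adjusted p = 0.135). Abcd4, which helps release cobalamin from lysosomes, read 5.84, 5.87 and 5.71 in wild type, 5.92, 6.21 and 6.25 in mutant and 5.82, 5.96 and 6.04 in rescue. Its mutant difference of 0.32 ± 0.11 did not pass (limma adjusted p = 0.0782), and was called without the dimmest 40% of genes (0.0445) and without mutant replicate 1 (0.42, 0.0376).

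The 3 mitochondrial members gave no call by limma, where 15.4%, 3.81% and 2.28% of all genes were called in the 3 comparisons. Only 1 value, Abcb10 in rescue against wild type, had an unadjusted p under 0.05. Of all 19938 genes, 6122, 4200 and 2840 did in the 3 comparisons. Abcb6, which carries porphyrins, read 8.45, 8.08 and 8.14 in wild type, 8.28, 8.06 and 8.22 in mutant and 8.07, 7.84 and 8.06 in rescue. Abcb10, needed for heme synthesis in red cell precursors, read 6.36, 6.31 and 6.27 in wild type, 6.36, 6.35 and 6.54 in mutant and 6.64, 6.61 and 6.40 in rescue. Its rescue values lay above wild type without overlap (0.24 ± 0.11, limma adjusted p = 0.32). Abcb8, of the mitochondrial inner membrane, read 6.19, 5.82 and 5.96 in wild type, 6.03, 6.12 and 6.15 in mutant and 6.09, 6.16 and 5.87 in rescue, all overlapping.

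Abcc9 encodes SUR2, the regulatory subunit of ATP-sensitive potassium channels in smooth muscle and pericytes. It read 8.88, 8.67 and 8.61 in wild type, 8.15, 8.14 and 8.15 in mutant and 8.59, 8.48 and 8.63 in rescue. The mutant values were nearly equal and lay below all others. It fell by 0.57 ± 0.10 in mutant (limma adjusted p = 0.00216, called in all 18 alternatives) and rose by 0.42 ± 0.10 in rescue (limma adjusted p = 0.04). The rise was not called in 9 of 18 alternatives: the 2 groups alone (adjusted p = 0.0521), the trend on gene span removed (0.38, 0.0581), without any 1 mutant or rescue array (0.39 to 0.46, 0.0708 to 0.127), and without wild-type replicate 2 (0.42, 0.0531). Abcc8, which encodes the related SUR1 of pancreatic beta cells and neurons, ranged from 5.82 to 6.63 and was not called.

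Of 12 markers of stellate cells and pericytes 3 fell in mutant and none rose (9.02% of all genes fell), 9 did not pass, and the same 3 rose in rescue against mutant (2.61% of all genes rose): Rgs5 (-0.86 and 0.57), Lrat (-0.81 and 0.62) and Dcn (-0.49 and 0.38). The median of all 12 was 0.00 and -0.01, with 6 above and 6 below 0 in mutant against wild type. Their summed level, on the log2 scale, was 11.72 to 11.86 in wild type, 11.42 to 11.46 in mutant and 11.67 to 11.76 in rescue. Dcn, one of the 3 called, read 10.41 to 11.04 and is the brightest term of that sum, and 1 of the 12, Des, was dim in all groups.

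Endothelial and Kupffer cell markers were also lower in the mutant arrays. Of 15 endothelial markers 9 fell (60.0%, against 9.02% of all genes), with summed levels of 11.98 to 12.20 in wild type, 11.40 to 11.47 in mutant and 11.58 to 11.94 in rescue. Of 13 Kupffer cell and macrophage markers 9 fell (69.2%, against the same 9.02%), with sums of 11.98 to 12.40, 10.74 to 10.83 and 11.11 to 11.47. None of these markers was dim in all groups. In rescue against mutant 2 endothelial markers (Kdr and Mrc1) and 1 Kupffer marker (Vsig4) rose (2.61% of all genes rose). At an unadjusted limma p under 0.05, 13 of the 15 endothelial and 1 of the 13 Kupffer markers rose there, beside 1924 of 19938 genes. The medians were 0.30 and 0.20, with 14 endothelial and 11 Kupffer markers above 0 and 1 and 2 below. In rescue against wild type 2 endothelial and 6 Kupffer markers fell (1.35% of all genes fell). Of 9 hepatocyte markers 0 passed by limma in any comparison, where 15.4%, 3.81% and 2.28% of all genes were called. At an unadjusted p under 0.05 there were 1, 0 and 1, beside 6122, 4200 and 2840 of all 19938 genes. The hepatocyte sums overlapped, at 15.43 to 15.61, 15.56 to 15.69 and 15.46 to 15.64. In mutant against wild type limma called 0 of 5 bile duct, 0 of 2 red cell and 0 of 5 neutrophil markers (15.4% of all genes were called). At an unadjusted p under 0.05 there were 0, 1 and 0, beside 6122 of all 19938 genes. Of 6 lymphocyte markers 1, the dim Cd3g, fell. Dim in all groups were 3 of the 5 bile duct, 5 of the 5 neutrophil and 5 of the 6 lymphocyte markers, so these lists say little about their cells. The part of these cells in the values of Abcc9, Abca8a, Abca9, Abca6, Abcg2, Abcg3 and Abcb1a was not tested.

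Abce1, whose protein splits ribosomes after translation, read 10.27, 10.32 and 10.51 in wild type, 9.98, 10.04 and 10.08 in mutant and 10.20, 10.22 and 10.08 in rescue. The mutant values lay below wild type, and rescue met mutant at 10.08. It fell by 0.33 ± 0.10 in mutant (limma adjusted p = 0.0417). The call was lost in 9 of 18 alternatives: quantile normalization repeated (-0.23, adjusted p = 0.169), the 2 groups alone (0.0573), without rescue replicate 3 (0.0538), and without any 1 wild-type or mutant array (-0.26 to -0.38, 0.0512 to 0.166). Of the translation-related Abcf genes none was called: Abcf1 ranged from 7.81 to 8.06, Abcf2 from 7.07 to 7.48 and Abcf3 from 7.43 to 7.86.

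Abcg3, a rodent gene close to Abcg2, read 6.67, 6.05 and 6.25 in wild type, 5.79, 5.55 and 5.64 in mutant and 6.20, 5.82 and 5.81 in rescue. Mutant values lay below the others, and were dim. It fell by 0.66 ± 0.15 in mutant (limma adjusted p = 0.00964), in all 18 alternatives. Rescue minus mutant was 0.29 ± 0.15 (adjusted p = 0.303, limma).

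Abca15, which has been found mainly in testis in mouse, read 3.78, 4.05 and 3.90 in wild type, 4.37, 4.54 and 4.29 in mutant and 4.25, 4.35 and 4.21 in rescue. Wild type lay below both other groups, and all 9 values were dim, near the olfactory receptor medians of 4.14 to 4.33. The measured rise of 0.49 ± 0.11 in mutant (limma adjusted p = 0.00788) therefore lies in a range where a level need not be above background.

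**Figure D4:**
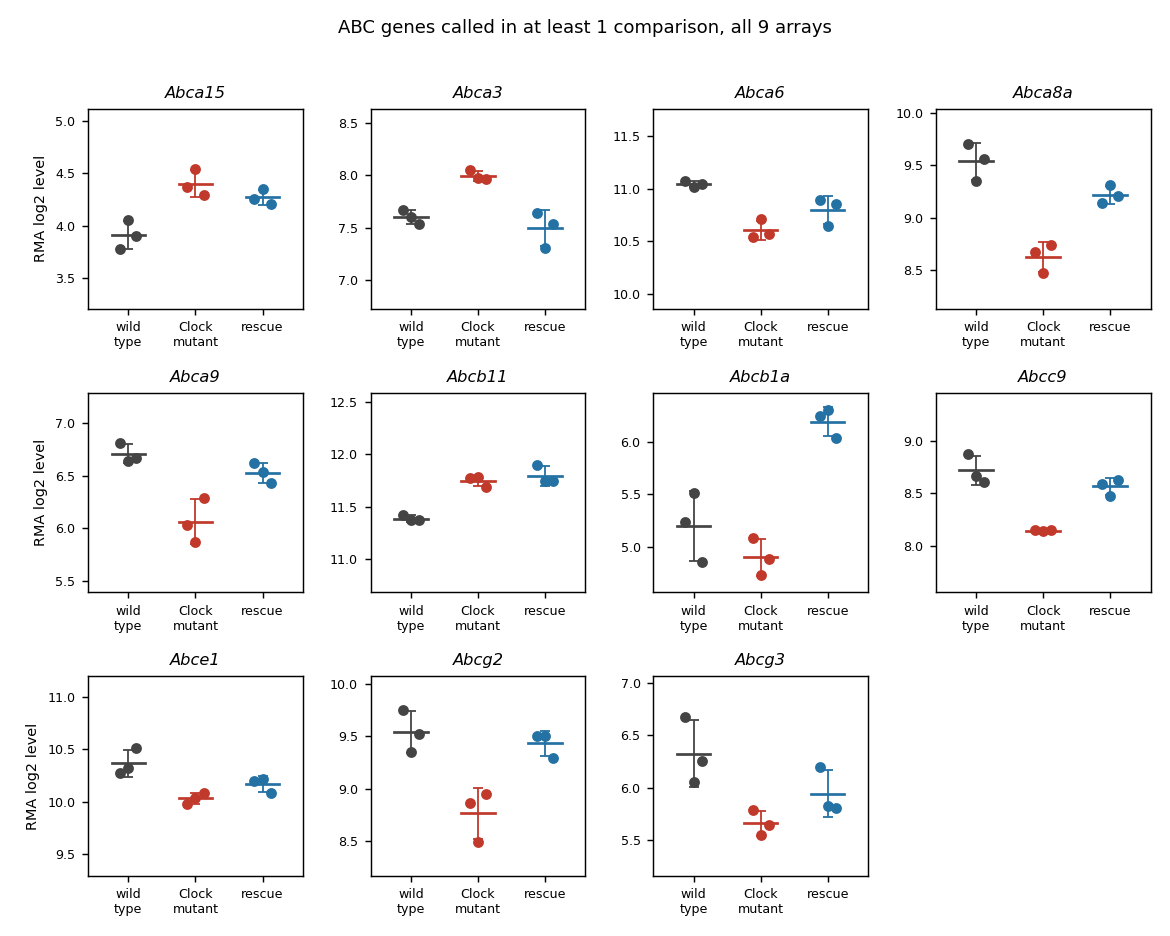
RMA log2 levels (y axes, each spanning 1.9 log2 units) of the 11 ABC genes called in at least 1 comparison, with 1 point per array, the group mean (line) and its SD (bar). Abca8a, Abca9, Abcc9 and Abcg2 are lowest in the mutant, Abca3 is highest there, and Abcb1a is highest in rescue.

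The remaining members gave no call. Abca4, Abca13, Abca14, Abca16, Abca17, Abcb5 and Abcc12 were dim in all groups, and their mutant differences lay between -0.02 and 0.25. Abcc10 read 6.15 to 6.40 in wild type, 6.45 to 6.67 in mutant and 6.29 to 6.59 in rescue (mutant difference 0.31 ± 0.12, limma adjusted p = 0.0886). Abcb9, a lysosomal peptide carrier, ranged from 5.72 to 6.13.

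Of 19 regulators measured, among them the receptors LXR (Nr1h3), FXR (Nr1h4), PXR (Nr1i2) and CAR (Nr1i3), 1 fell in mutant and none rose (5.26% called, against 15.4% of all genes). Ppargc1a, a coactivator of nuclear receptors, read 8.90, 8.90 and 9.07 in wild type, 8.58, 8.68 and 8.48 in mutant and 9.07, 8.86 and 8.99 in rescue. Its mutant values lay below the others. It fell by 0.38 ± 0.11 (limma adjusted p = 0.0272), and its rescue difference of 0.40 ± 0.11 did not pass (limma adjusted p = 0.0507). Next in p for mutant against wild type were Rxrb at 0.33, Ppargc1b at -0.45 and Ppara at -0.22, none of them called. No regulator was called by limma between rescue and mutant or between rescue and wild type (3.81% and 2.28% of all genes were). In these comparisons 2 and 5 of the 19 had an unadjusted p under 0.05, beside 4200 and 2840 of 19938 genes. Of the 2, 1 was above and 1 below mutant, while all 5 were below wild type, beside 1568 genes below it. Smallest in p against wild type were Srebf1 at -0.44, Pparg at -0.43, Ppara at -0.30 and Rxra at -0.39. Nr1h4, which drives Abcb11, differed by -0.11 ± 0.12 in mutant (adjusted p = 0.57, limma), and Nr1h3, which drives Abca1, Abcg5 and Abcg8, by 0.27 ± 0.14 (adjusted p = 0.213, limma), both named for their role after their values were seen.

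Among 31 measured partners, which traffic, chaperone or work beside ABC transporters, 3 rose and 4 fell in mutant (22.6% called, against 15.4% of all genes). Pex3, Pex16 and Pex19, which insert membrane proteins such as Abcd3 into peroxisomes, split. Pex16 read 7.76, 7.64 and 7.42 in wild type, 8.70, 8.31 and 8.67 in mutant and 7.99, 7.67 and 8.14 in rescue. Its mutant values lay above all others, a rise of 0.95 ± 0.14 (limma adjusted p = 6.92e-04) beside a fall of 0.63 ± 0.14 in rescue against mutant (limma adjusted p = 0.0311). Pex3 read 9.12, 9.17 and 9.22 in wild type, 8.63, 8.58 and 8.73 in mutant and 8.85, 8.73 and 9.09 in rescue, and fell by 0.52 ± 0.11 in mutant (limma adjusted p = 0.00555).

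Pex19 was 0.39 ± 0.11 higher in mutant (limma adjusted p = 0.0291). Moesin (Msn), which ties membranes to actin and is abundant in endothelium, fell by 0.77 ± 0.13 (limma adjusted p = 0.00162), with Slc51a, a subunit of a basolateral bile acid exporter, 0.35 ± 0.10 higher at a dim level (limma adjusted p = 0.025). The other called partners were Tmem30a, a subunit of lipid flippases, at -0.37 ± 0.10 (limma adjusted p = 0.0252), and the organic anion uptake gene Slco1a1 at -0.42 ± 0.13 (limma adjusted p = 0.0451). Pex19, Tmem30a and Slco1a1 lay outside the 4 of smallest p and were named after their values were seen. In rescue against mutant 6.45% of the partners were called, against 3.81% of all genes: Pex16 and Slco2b1, another uptake gene (-0.45 ± 0.12, limma adjusted p = 0.0489), both lower. Next in p were Atp8b1, a lipid flippase that works beside Abcb4 and Abcb11 in the canaliculus, at 0.39 ± 0.11 (limma adjusted p = 0.0522), and Vps33b, a sorting factor for canalicular proteins, at 0.40 ± 0.11 (limma adjusted p = 0.0647). No partner was called by limma in rescue against wild type (2.28% of all genes were). There 7 of the 31 had an unadjusted p under 0.05, beside 2840 of 19938 genes.

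ABC genes are long, and gene span moved with the mutant difference over all genes. The median span was 64.8 kb for the 48 members and 17.7 kb for all genes, and Spearman's rho of span with the mutant difference was -0.236 across 19855 genes and -0.15 across the members, as a description of genes on the same 9 arrays. With that trend removed 10 members were called in mutant against wild type (3 rose, 7 fell), against 13.2% of all genes. Between rescue and mutant 4 were called, against 3.15%, and the rises of Abca9 and Abcc9 were not among them. Median centring left 1 rise and 7 falls in mutant against wild type, while over all genes it moved the split from 1270 rises and 1798 falls to 610 and 2272.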

How the data were processed

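Liver RNA of 9 mice was hybridised to 1 Affymetrix gene array each. The authors deposited log2 levels for each probe set, from RMA and Affymetrix Expression Console per the submitters' processing notes, which give no version here. RMA gives the arrays run together a common distribution, which can hide a shift of most genes, and compresses dim levels. The log2 scale was read from the values (-0.464 to 13.86); none was missing, and the number of arrays limits the precision.

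Of 35556 probe sets, 21789 had 1 symbol in the platform annotation, 1621 several and 12146 none. The reference gene table (GRCm38.p6) matched 21698 of the 21789 by Entrez identifier and changed no symbol. The brightest probe set per gene was kept, which left 19938 genes.

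All 9 arrays were fitted across all genes in R 4.3.3 by limma 3.58.1, with statmod 1.5.0 for array weights, 6 residual and 8.475 prior degrees of freedom and Benjamini-Hochberg adjustment within each comparison. Exact permutation tests used scipy 1.17.1 and figures matplotlib 3.10.9. The limma p-values set a group difference against the spread between these animals, moderated by a prior taken from all genes. The fit was tested on simulated data.

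Members, role lists, markers, regulators and partners were chosen with earlier results of these data known. The rule gave full values for each called member and for the canalicular, sinusoidal, sterol and lipid, peroxisomal and mitochondrial lists. It allowed up to 4 regulators or partners of smallest p to be named per comparison, and not every comparison names them. The motifs and the paired genes compared within arrays were added after the data were seen. Listed genes without a single-symbol probe set were not analysed here: 2 regulators, 1 partner and 7 markers. The alternatives tried were a block for replicate number, a filter on dim genes, quantile normalization repeated, median centring, a trended and robust prior, array weights, 2 groups alone, the mean of probe sets, removal of the trend on gene span, and each array left out.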

Additional observations from a re-analysis of the deposited data

How the results depend on the processing

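The count of called members was 7 to 10 in mutant against wild type when single arrays were left out, 1 to 5 in rescue against mutant, 1 to 2 in rescue against wild type and 6 to 11 in the F test. In rescue against mutant, where 6 were called, it was 1 without mutant replicate 2 or rescue replicate 2 and 2 without mutant replicate 1 or rescue replicate 3; Abcb1a was called each time. In rescue against wild type, where 2 were called, it was 1 without mutant replicate 1 or 3, rescue replicate 1 or 3 or any 1 wild-type array. In the F test it was 6 without wild-type replicate 1. With quantile normalization repeated 4 were called between rescue and wild type, and 1 with median centring or with the 2 groups alone. The cause of these moves was not tested. Whether a replicate number marks a shared batch is not given, and these values do not settle it. In their deviations from the group means, same-numbered arrays correlated at -0.111 to 0.191 and differently numbered arrays at -0.256 to 0.179. With the replicate block 10, 6 and 2 members were called in the 3 comparisons and 11 in the F test. Over all genes the block gave 3368, 931 and 507 calls in the 3 comparisons, against 3068, 759 and 454 without it. Over all genes, leaving out single arrays gave 1695 to 3130 calls in mutant against wild type (3068 with all arrays), 200 to 692 in rescue against mutant (759), 233 to 501 in rescue against wild type (454) and 1561 to 2443 in the F test (2569). In rescue against mutant 1178 genes were called without the dimmest 40% of genes, 1210 with a trended and robust prior and 1334 with array weights, and in rescue against wild type 711 and 704 with the first pair of these settings. The filter on dim genes kept 34 members. No called member changed direction in any alternative run.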

Other observations

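Cftr, Tap1 and Tap2 are ABC genes by sequence whose symbols do not start with Abc. Cftr, the chloride channel of bile duct cells, was dim on all arrays (3.36 to 3.89). Tap1 and Tap2, which carry peptides for antigen presentation, ranged from 6.51 to 6.88 and from 5.84 to 6.52. None of the 3 was called by limma in any comparison, and the largest difference was -0.23 ± 0.10 for Tap1 in rescue against mutant (limma adjusted p = 0.226).

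The gene after Abca5 on chromosome 11, Map2k6, which encodes a kinase that activates p38, was looked at because it flanks the ABCA run. It was -1.37 ± 0.13 in mutant (limma adjusted p = 2.80e-05) and -1.13 ± 0.13 in rescue (limma adjusted p = 4.57e-04) relative to wild type, a larger difference than in any of the 5 ABCA genes. Kcnj16, a potassium channel gene beyond it, was -0.63 ± 0.15 in mutant (limma adjusted p = 0.0117). On the other side, 1700012B07Rik next to Abca8b was at -0.01 ± 0.12 in mutant, and Fam20a beyond it, a secretory pathway gene, was 0.74 ± 0.17 in rescue relative to wild type (limma adjusted p = 0.0333). These 4 flanking genes were chosen by position after the data were seen.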
